A study of Mus musculus with 2 samples.

Results

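The genes described here code for voltage-gated sodium channels (Scn), voltage-gated calcium channels (Cacna, Cacnb and Cacng) and hyperpolarization-activated, cyclic nucleotide-gated channels (Hcn). They were matched by their symbols, and the rule found 44 of the 41605 genes in the count matrices, of which 41 are described below and called the members. The study sequenced the RNA of single cells in droplets (10x Genomics kit that reads 3' ends) from the hippocampus of wild-type male C57BL/6 mice 10 weeks of age, in 2 libraries that each pooled the cells of 3 mice after a density gradient against debris and myelin. It set mechanical release of cells at 4 °C against enzyme digestion for 30 min at 37 °C, but no label ties a library to a method. Both libraries are therefore unassigned, are named library 1 and library 2, and stand for no method. All ratios and counts of differing genes below are between cell classes inside 1 library. Where levels of both libraries stand side by side, differences in depth and preparation between the libraries are not accounted for.

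Voltage-gated sodium channels carry the rising phase of the action potential, and each consists of a pore-forming subunit and auxiliary beta subunits that set its gating and place it at the membrane. Voltage-gated calcium channels turn depolarization into calcium entry: P/Q-type and N-type channels drive transmitter release, L-type channels signal to the nucleus, R-type channels serve spines and terminals, and T-type channels open near the resting potential and favour burst firing. Their pores associate with beta subunits, which bring them to the surface, and with extracellular alpha2delta subunits, which raise their number at synapses. HCN channels open on hyperpolarization, carry the h-current and set the resting properties of dendrites and the pace of rhythmic firing.

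The promoter is the sequence from which a gene is read. The windows below are shown for 3 members whose levels differed between neurons and oligodendrocyte-like cells, not all in the same direction. Hcn2 and Cacna2d1 had the highest levels of the 41 members in the oligodendrocyte-like cells of library 1. Hcn2 was at 225 counts per 1000000 there against 35.3 in neurons, but Cacna2d1 was at 113 there against 238 in neurons. Cacna2d3, a second alpha2delta gene, was at 11.3 counts per 1000000 there against 227 in neurons. They were picked after these values had been seen. Each window holds the 250 bases before the gene's start, from RefSeq on GRCm38.p6, read 5' to 3' on the gene's own strand, at chr10:79716384-79716633 (plus strand) for Hcn2, chr5:15934441-15934690 (plus strand) for Cacna2d1 and chr14:29721865-29722114 (minus strand) for Cacna2d3. Capitals mark matches to the GC box, GGGGCGGGG on either strand, where overlapping matches run together.
Hcn2: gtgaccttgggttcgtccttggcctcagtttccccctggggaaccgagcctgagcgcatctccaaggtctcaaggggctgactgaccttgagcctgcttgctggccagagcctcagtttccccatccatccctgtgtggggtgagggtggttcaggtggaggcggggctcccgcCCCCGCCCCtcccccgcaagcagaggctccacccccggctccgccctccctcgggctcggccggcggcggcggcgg
Cacna2d1: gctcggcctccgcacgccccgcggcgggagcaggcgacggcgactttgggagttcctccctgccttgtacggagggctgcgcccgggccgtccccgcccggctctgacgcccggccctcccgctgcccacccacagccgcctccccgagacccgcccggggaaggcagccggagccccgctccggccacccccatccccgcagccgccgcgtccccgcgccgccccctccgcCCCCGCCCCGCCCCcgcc
Cacna2d3: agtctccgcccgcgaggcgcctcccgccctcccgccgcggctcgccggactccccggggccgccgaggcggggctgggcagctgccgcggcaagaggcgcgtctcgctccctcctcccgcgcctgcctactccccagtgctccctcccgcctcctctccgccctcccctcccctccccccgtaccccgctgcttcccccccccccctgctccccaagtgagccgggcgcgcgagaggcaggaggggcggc
The window of Hcn2 held 1 GC box, that of Cacna2d1 held 2 that overlap, and that of Cacna2d3 held 0. G and C made up 70.4%, 82.4% and 80.0% of these windows, against a median of 52.4% over all windows. Windows of this length were at hand for 32 of the 41 members (43 windows, since some genes have several starts), and 6 of the 43 held a GC box, against 10.4% of all 32851 windows. These 6 belonged to Cacna1b, Cacna1f, Cacna2d1, Cacnb1, Cacng5 and Hcn2. The cyclic AMP response element TGACGTCA was in 0 of the 43 and in 1.55% of all windows, and the first part of the neuron-restrictive silencer element, TTCAGCACC, and its second part were in 0 of the 43 and in 0.301% and 0.0974% of all (all on both strands). A match is only a description of the letters in a window.

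The members lie on 14 chromosomes, and all 41 identifiers matched the GENCODE annotation of GRCm38. Chromosome 2 holds 8 of them, among them the sodium channel pore genes Scn3a (65457118 to 65567627, minus strand), Scn2a (65620771 to 65767447, plus strand), Scn1a (66270778 to 66440840, minus strand), Scn9a (66480080 to 66634962, minus strand) and Scn7a (66673425 to 66784914, minus strand) in a row. Cacna1a lies at 84388440 to 84640246 on chromosome 8 (plus strand), Cacna1e at 154390731 to 154884501 on chromosome 1 (minus strand) and Cacna2d2 at 107399612 to 107529343 on chromosome 9 (plus strand). Exons of 11 members overlap exons of a gene on the other strand: Cacna1a, Cacna1d, Cacna1h, Cacna1s, Cacna2d2, Cacnb1, Cacnb2, Cacnb4, Cacng2, Hcn3 and Scn9a. The labels do not say whether counting used strand, and whether the overlap bears on the counts of these 11 was not tested. Exons of Cacng8 overlap a gene of the same strand.

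Levels are unique molecular identifiers (UMIs, 1 per captured RNA molecule) summed over the cells of a class and given per 1000000 UMIs of that class (CPM). Only the 3' end of a molecule is counted, so CPM are not scaled by gene length. Comparisons are between classes for 1 gene, and where genes are ordered within a class, the order is that of captured UMIs. Ranges in parentheses after a level are exact Poisson 95% intervals. Each class of a library is 1 sample, so there was no replicate test, and every interval covers counting error only, not differences between mice or preparations.

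Library 1 held 18783691 UMIs in 12306 barcodes and library 2 29356086 UMIs in 6448, of which 5989 and 2075 cells were kept. The libraries shared 19 barcode sequences, 10 of them among the kept cells of library 1 and 7 among those of library 2. Classes were drawn by gates on marker genes. In library 1 they were 485 CA1 pyramidal-like, 488 CA3 pyramidal-like, 1109 dentate granule-like and 158 interneuron-like cells (below CA1-like, CA3-like, granule-like and interneuron-like), 2145 neuron-like cells that passed no subfield gate, 691 microglia-like, 282 astrocyte-like and 100 oligodendrocyte-like cells. All 10 CA1, all 15 CA3, all 18 granule cell and all 14 interneuron markers were detected in the class they name. Between 6 and 9 of the 10 leading genes of each neuronal class were its own markers, and 0 were those of another class. Since the gates used these same lists, this was largely fixed in advance and is no test of the class names. The neuron marker list summed to 6943 CPM in granule-like cells, against 19838, 23303 and 27431 CPM in CA1-like, CA3-like and interneuron-like cells, and interneuron markers summed to 348 CPM in granule-like cells, against 62.1 and 50.7 in CA1-like and CA3-like cells. How far this bears on the levels below was not tested. Many cells lay close to a gate: 148 of the CA1-like, 140 of the CA3-like and 150 of the granule-like cells were less than 25% above it.

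Over the 4 neuronal classes together, 26 of the 41 members had at least 100 UMIs, 2 (Cacng7 and Hcn3) had 20 to 99, 8 had 1 to 19 and 5 had 0. Those at 0 were Cacna1s and Scn4a, the pore genes of skeletal muscle, Cacng1, the muscle gamma subunit, and Scn10a and Scn11a, known from sensory neurons of the dorsal root ganglia. With 3 counts as the limit that a count of 0 allows, each of these may reach up to 0.720 CPM. The 8 sparse members were Cacna1f, Cacna2d4, Cacng4, Cacng5, Cacng6, Hcn4, Scn4b and Scn7a. The 41 members summed to 4864 CPM (4727 to 5004) in CA1-like, 4663 (4560 to 4768) in granule-like, 4290 (4175 to 4408) in CA3-like and 3980 (3756 to 4213) in interneuron-like cells. Intervals of CA1-like and granule-like cells overlapped each other and lay above those of CA3-like and interneuron-like cells, which also overlapped.

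**Figure D1:**
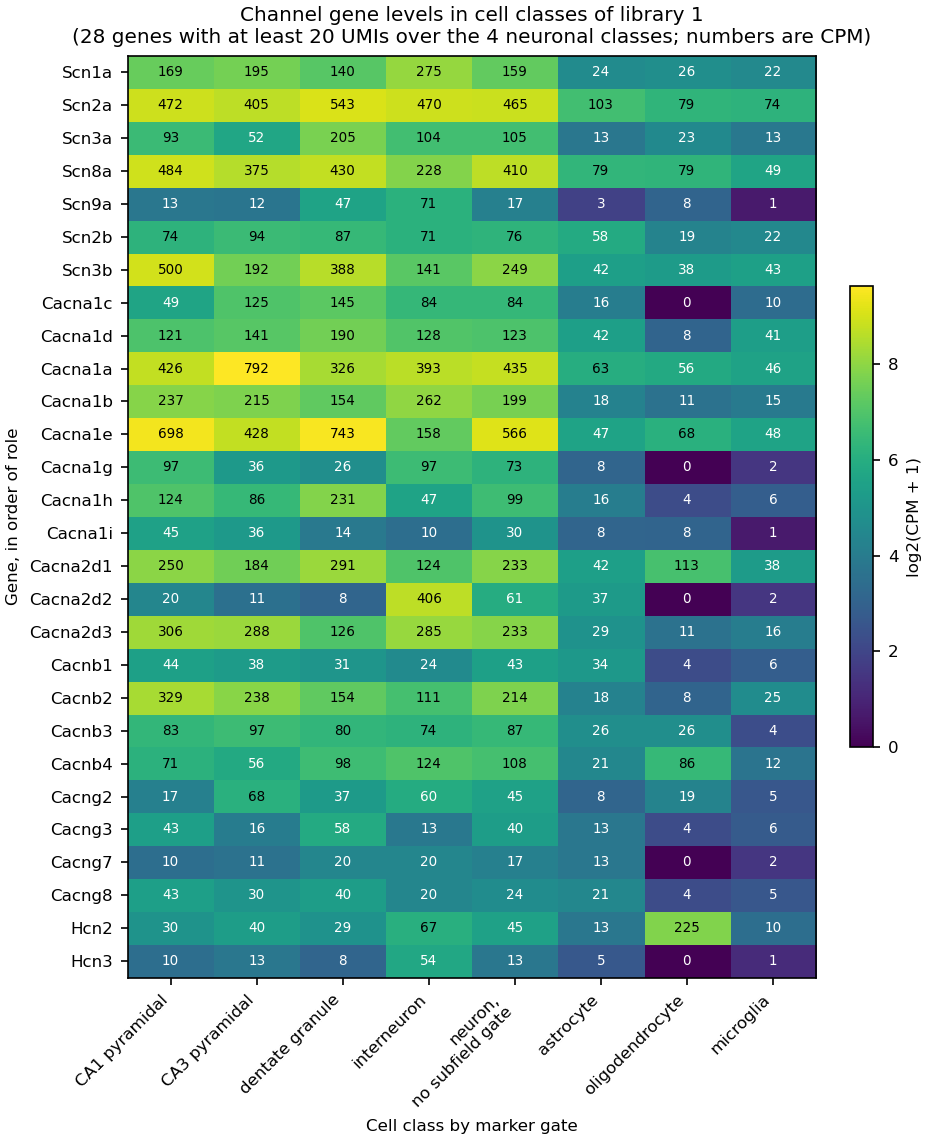
Level of the 28 channel genes with at least 20 UMIs over the 4 neuronal classes (rows, by role) in 8 cell classes of library 1 (columns); colour is log2(CPM + 1) and the printed number is the CPM. Most genes are brighter in the 5 neuronal columns than in the 3 glial ones, Hcn2 (225 CPM) is brightest in oligodendrocyte-like cells, and Cacna2d2 (406 CPM) stands out in interneuron-like cells.

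Among the sodium channel pores, Scn2a and Scn8a had the most UMIs in each excitatory class. Scn2a, the main pore of the axon initial segment early in development and of unmyelinated axons, was at 472 CPM (430 to 517) in CA1-like, 405 (370 to 442) in CA3-like, 543 (508 to 579) in granule-like and 470 (396 to 555) in interneuron-like cells. Scn8a, the pore that dominates the mature initial segment and the nodes of Ranvier, was at 484 CPM (441 to 529) in CA1-like, 375 (341 to 410) in CA3-like, 430 (399 to 462) in granule-like and 228 (177 to 290) in interneuron-like cells. Its interneuron-like interval lay below those of the 3 excitatory classes. Scn1a, the pore through which parvalbumin interneurons largely fire, was at 169 CPM (144 to 197) in CA1-like, 195 (171 to 221) in CA3-like, 140 (123 to 159) in granule-like and 275 (219 to 342) in interneuron-like cells. The granule-like level of Scn1a was the lowest, with an interval that overlapped that of CA1-like cells, and the interneuron-like level the highest, with an interval that just overlapped that of CA3-like cells. Scn3a, a pore best known from the embryonic brain, was at 92.7 CPM (74.6 to 114) in CA1-like, 51.5 (39.6 to 65.9) in CA3-like, 205 (184 to 228) in granule-like and 104 (70.7 to 148) in interneuron-like cells. The granule-like level of Scn3a lay above all others, and its interval overlapped none. Scn9a, a pore known from pain-sensing neurons, was at 13.2 CPM (7.05 to 22.6) in CA1-like, 12.3 (6.86 to 20.2) in CA3-like, 46.9 (37.0 to 58.5) in granule-like and 70.5 (43.7 to 108) in interneuron-like cells. Scn9a was low in both pyramidal classes and higher in granule-like and interneuron-like cells, whose intervals overlapped.

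Within the 9 sodium channel pore genes described, Scn2a took nearly the same share of the UMIs in each class: 38.3% in CA1-like, 38.7% in CA3-like, 39.7% in granule-like and 40.9% in interneuron-like cells. The other shares moved. Scn8a took 39.3% (exact binomial 95% interval 36.6 to 42.1) in CA1-like cells but 19.9% (15.8 to 24.5) in interneuron-like cells, where Scn1a took 24.0% (19.5 to 28.9). Scn3a took 15% (13.6 to 16.6) in granule-like cells and 4.93% (3.81 to 6.26) in CA3-like cells. Scn7a, a channel-like protein that senses sodium, had 14 UMIs over the 4 classes.

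Of the 3 sodium channel beta genes described, Scn3b differed most between the classes. It was at 500 CPM (457 to 546) in CA1-like, 192 (168 to 218) in CA3-like, 388 (358 to 419) in granule-like and 141 (102 to 191) in interneuron-like cells, so that CA1-like and granule-like cells held the high levels and no interval of these touched one of the other classes. Scn2b was at 74.4 CPM in CA1-like, 94.0 in CA3-like, 87.1 in granule-like and 70.5 in interneuron-like cells, with overlapping intervals in all 4. Scn4b, the partner of resurgent sodium current, had 15 UMIs over the 4 classes (3.6 CPM). Summed, these 3 genes reached 579 CPM (532 to 628) in CA1-like, 477 (444 to 511) in granule-like, 292 (262 to 324) in CA3-like and 212 (163 to 271) in interneuron-like cells.

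Among the calcium channel pores of the excitatory classes, Cacna1e (R-type) and Cacna1a (P/Q-type) had the most UMIs. Cacna1a, whose channel triggers transmitter release at most central synapses, was at 426 CPM (386 to 469) in CA1-like, 792 (742 to 843) in CA3-like, 326 (299 to 355) in granule-like and 393 (325 to 471) in interneuron-like cells. The CA3-like interval overlapped none of the other 3, and these are the cells whose axons form the recurrent and Schaffer collaterals. Cacna1e was at 698 CPM (647 to 752) in CA1-like, 428 (393 to 467) in CA3-like, 743 (702 to 785) in granule-like and 158 (116 to 210) in interneuron-like cells. Here granule-like and CA1-like cells were high with overlapping intervals, CA3-like cells were lower and interneuron-like cells lowest. Cacna1a therefore took 42.6% (40.5 to 44.7) of the calcium pore UMIs of CA3-like cells but 23.7% (21.7 to 25.7) and 17.8% (16.5 to 19.2) in CA1-like and granule-like cells. Cacna1e took 38.8% (36.5 to 41.1) in CA1-like, 40.6% (38.8 to 42.4) in granule-like, 23.1% (21.3 to 24.8) in CA3-like and 13.4% (10.0 to 17.4) in interneuron-like cells. Cacna1b, the N-type pore, was at 237 CPM (208 to 270) in CA1-like, 215 (190 to 243) in CA3-like, 154 (136 to 174) in granule-like and 262 (207 to 327) in interneuron-like cells, lowest in granule-like cells, and its share was 22.2% (18 to 26.9) in interneuron-like cells against 8.44% to 13.2% in the excitatory classes.

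The 2 L-type pores of the brain had their highest levels in granule-like cells. Cacna1c, which couples synaptic activity to gene expression, was at 48.9 CPM (36.1 to 64.8) in CA1-like, 125 (106 to 147) in CA3-like, 145 (128 to 165) in granule-like and 84.0 (54.3 to 124) in interneuron-like cells. The CA3-like and granule-like intervals overlapped each other. The CA1-like level was the lowest of the 4, and its interval reached only into that of interneuron-like cells. Cacna1d, an L-type pore that opens at lower voltages, was at 121 CPM (100 to 145) in CA1-like, 141 (120 to 163) in CA3-like, 190 (170 to 212) in granule-like and 128 (90.3 to 175) in interneuron-like cells, with the granule-like interval above those of both pyramidal classes. Cacna1f, the retinal L-type pore, had 2 UMIs over the 4 classes.

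Each T-type pore had its own pattern. Cacna1g was at 96.8 CPM (78.3 to 118) in CA1-like, 36.0 (26.1 to 48.3) in CA3-like, 25.8 (18.7 to 34.8) in granule-like and 97.4 (65.2 to 140) in interneuron-like cells, high in CA1-like and interneuron-like cells and low in the other 2. Cacna1h was at 124 CPM (103 to 148) in CA1-like, 85.9 (70.2 to 104) in CA3-like, 231 (208 to 255) in granule-like and 47.0 (25.7 to 78.9) in interneuron-like cells, highest in granule-like cells and lowest in interneuron-like cells. Cacna1i was at 44.8 CPM (32.6 to 60.2) in CA1-like, 36.0 (26.1 to 48.3) in CA3-like, 13.8 (8.76 to 20.7) in granule-like and 10.1 (2.08 to 29.4) in interneuron-like cells, with the pyramidal classes above the granule-like one and 3 UMIs in interneuron-like cells. Granule-like cells thus had the highest level of Cacna1h and low levels of the other T-type genes.

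**Figure D2:**
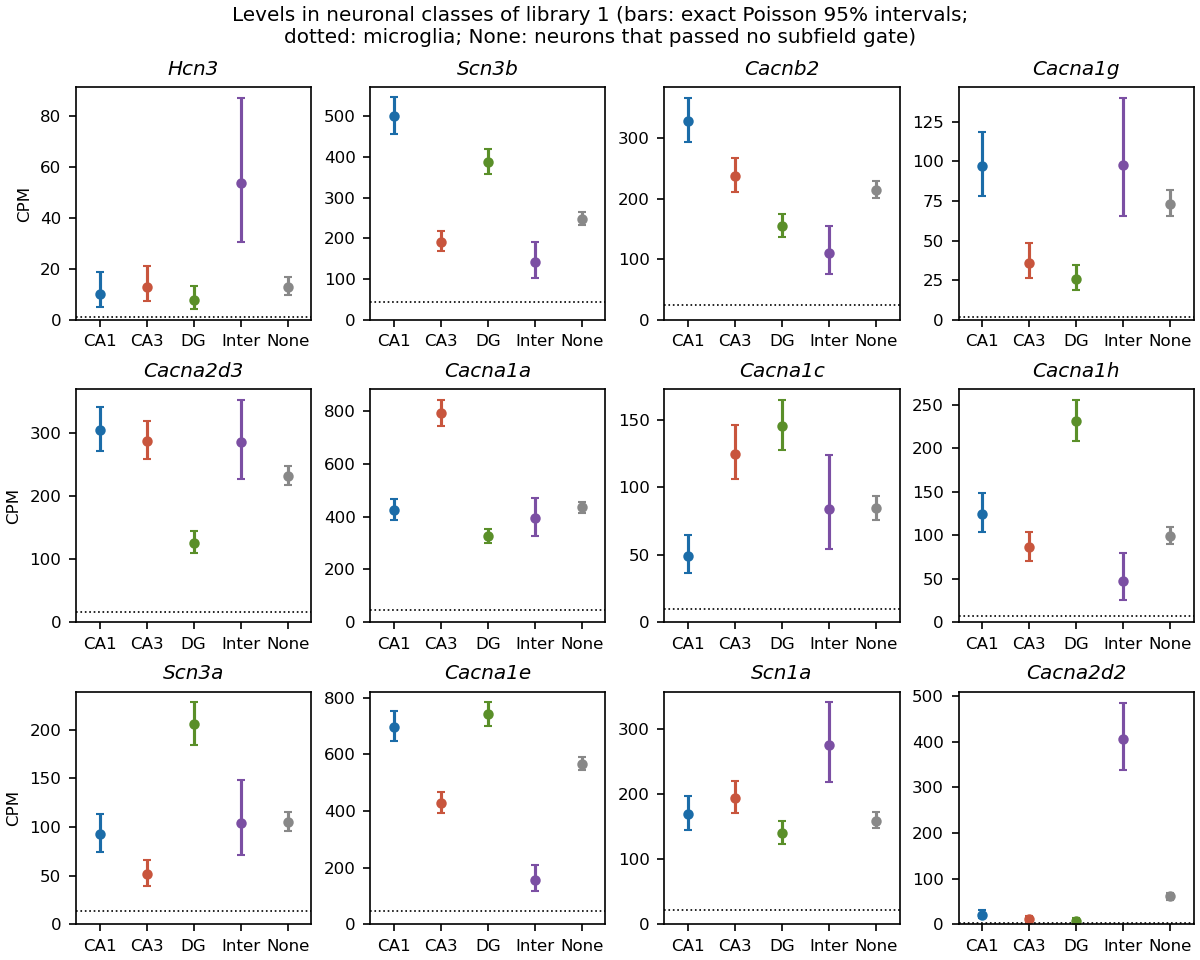
Level in CPM of 12 channel genes (1 panel each) in CA1-like, CA3-like, granule-like (DG) and interneuron-like (Inter) cells and in neurons that passed no subfield gate (None) of library 1, with exact Poisson 95% intervals; the dotted line is the microglia-like level of the same gene. Cacna1a peaks in CA3-like cells (792 CPM), Scn3a and Cacna1h peak in granule-like cells (205 and 231 CPM) and Cacna2d2 in interneuron-like cells (406 CPM).

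Among the auxiliary calcium channel genes, the alpha2delta subunits showed the sharpest split. These are the proteins that gabapentin binds (Cacna2d1 and Cacna2d2). Cacna2d2 was at 20.4 CPM (12.4 to 31.5) in CA1-like, 10.6 (5.66 to 18.2) in CA3-like, 7.81 (4.16 to 13.4) in granule-like and 406 (337 to 486) in interneuron-like cells. The interneuron-like interval lay far above those of the excitatory classes. After each cell had been thinned to 1000 UMIs, Cacna2d2 was found in 25.3% of interneuron-like cells (18.7 to 32.8), 2.06% of CA1-like, 1.43% of CA3-like and 0.812% of granule-like cells, and in 0.434% of microglia-like cells, which should lack it (before thinning 38.0%, 3.71%, 2.05%, 0.992% and 0.434%, at median depths of 1676, 1927, 2366.5, 1404 and 2198 UMIs). Cacna2d1 was at 250 CPM (219 to 283) in CA1-like, 184 (161 to 210) in CA3-like, 291 (266 to 319) in granule-like and 124 (87.5 to 171) in interneuron-like cells, highest in granule-like cells, where the interval overlapped that of CA1-like cells, and lowest in interneuron-like cells, where it overlapped that of CA3-like cells. Cacna2d3 was at 306 CPM (272 to 342) in CA1-like, 288 (259 to 320) in CA3-like, 126 (110 to 144) in granule-like and 285 (228 to 353) in interneuron-like cells, with granule-like cells below the other 3. Cacna2d2 made up 49.8% (43.3 to 56.3) of the alpha2delta UMIs of interneuron-like cells and 1.83% to 3.54% in the excitatory classes, while Cacna2d1 made up 68.4% (64.8 to 71.8) in granule-like cells. Cacna2d4, known from the retina, had 2 UMIs.

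Of the beta subunits, which bind the pore inside the cell, Cacnb2 had the most UMIs in each excitatory class. It was at 329 CPM (294 to 367) in CA1-like, 238 (211 to 267) in CA3-like, 154 (136 to 174) in granule-like and 111 (76.3 to 156) in interneuron-like cells, a level that stepped down from CA1-like to CA3-like to granule-like cells with no overlap of intervals. Cacnb4 was at 71.3 CPM (55.6 to 90.1) in CA1-like, 56.4 (43.9 to 71.4) in CA3-like, 97.9 (83.5 to 114) in granule-like and 124 (87.5 to 171) in interneuron-like cells and made up 37.4% (27.9 to 47.7) of the beta UMIs of interneuron-like cells and 13.1% to 26.9% in the excitatory classes. Cacnb3 (82.5 CPM in CA1-like, 97.3 in CA3-like, 79.9 in granule-like and 73.9 in interneuron-like cells) and Cacnb1 (43.8 CPM in CA1-like, 37.6 in CA3-like, 31.2 in granule-like and 23.5 in interneuron-like cells) had overlapping intervals in all 4 classes.

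Most brain products of the Cacng genes are TARPs, auxiliary proteins of AMPA receptors rather than of calcium channels. Cacng2 (stargazin) was at 17.3 CPM (10.1 to 27.7) in CA1-like, 67.9 (54.1 to 84.1) in CA3-like, 37.3 (28.6 to 47.8) in granule-like and 60.4 (35.8 to 95.5) in interneuron-like cells, lowest in CA1-like cells. Cacng3 was at 42.8 CPM (30.8 to 57.8) in CA1-like, 15.5 (9.35 to 24.3) in CA3-like, 57.7 (46.7 to 70.4) in granule-like and 13.4 (3.66 to 34.4) in interneuron-like cells, low where Cacng2 was high among the pyramidal classes. In CA3-like cells Cacng2 made up 52.5% (44.4 to 60.5) of the family's UMIs and Cacng3 12% (7.40 to 18.1), and in CA1-like cells the shares were 15.2% (9.10 to 23.2) and 37.5% (28.5 to 47.1). Cacng8, a TARP long known from the hippocampus, was at 42.8 CPM in CA1-like, 30.3 in CA3-like, 39.7 in granule-like and 20.1 in interneuron-like cells, with overlapping intervals. Cacng4 had 12 UMIs (40.3 CPM, 20.8 to 70.4) in the 158 interneuron-like cells and 6 (1.55 CPM) in the 2082 excitatory ones. Cacng7 lay between 10.2 and 20.4 CPM in the 4 classes. Cacng5 and Cacng6 had 11 and 4 UMIs over the 4 classes.

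**Figure D3:**
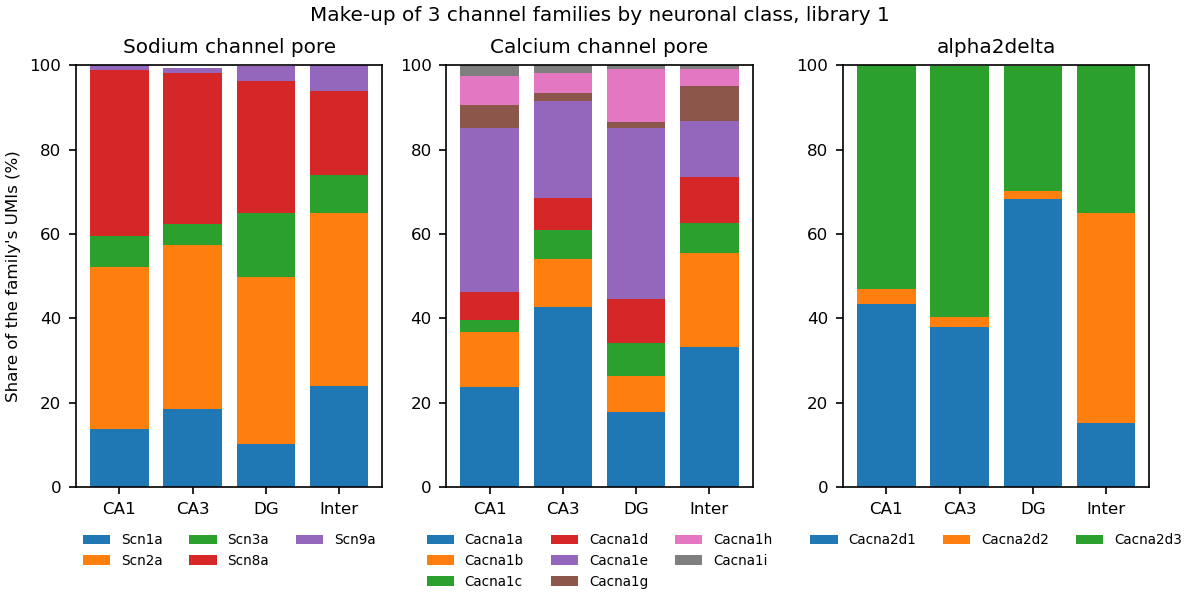
Share of each gene in the UMIs of its family (sodium channel pores, calcium channel pores and alpha2delta subunits, over the genes described) in CA1-like, CA3-like, granule-like (DG) and interneuron-like (Inter) cells of library 1; genes under 1.5% in every class are left out, so some bars end just below 100%. Cacna1a takes 42.6% of the calcium pore UMIs in CA3-like cells, and Cacna2d2 takes 49.8% of alpha2delta in interneuron-like cells.

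Of the HCN genes, Hcn2, a slower and strongly cyclic AMP-sensitive HCN channel, was at 29.5 CPM (19.8 to 42.4) in CA1-like, 40.1 (29.6 to 53.0) in CA3-like, 29.4 (21.8 to 38.9) in granule-like and 67.2 (41.0 to 104) in interneuron-like cells, and Hcn3 at 10.2 CPM (4.89 to 18.7) in CA1-like, 13.1 (7.48 to 21.2) in CA3-like, 7.81 (4.16 to 13.4) in granule-like and 53.7 (30.7 to 87.3) in interneuron-like cells, both highest in interneuron-like cells, where the interval of Hcn3 lay above the other 3. Hcn4, the pacemaker channel of the heart and thalamus, had 3 UMIs.

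The hippocampal subfields were then compared pairwise. A gene was said to differ when its levels, with 10 CPM added to both, stood at least 2-fold apart, among genes with at least 20 UMIs over both classes. Ratios are given without the added 10 CPM and with exact conditional binomial 95% intervals. The choice of 2-fold is a rule of size and not a test, and the 3 pairs share classes with each other.

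Between granule-like and CA1-like cells, 28 members could be read, and 3 were higher (background over all 11028 genes 4.36%) and 4 lower (background 4.13%) in granule-like cells. Higher were Cacna1c at 2.97 times (2.17 to 4.14), Scn9a at 3.54 times (1.95 to 6.94) and Scn3a at 2.22 times (1.75 to 2.82) the CA1-like level. Lower were Cacna1g, which was 3.75 times (2.59 to 5.50) as high in CA1-like cells, Cacna1i (3.24 times, 1.92 to 5.63), Cacna2d3 (2.42 times, 2.02 to 2.90) and Cacnb2 (2.13 times, 1.80 to 2.52). The other 21 were within 2-fold, and the median log2 ratio was -0.02 over the members and 0.05 over all genes. With cells of at least 2000 UMIs only 4 differed: Cacna1g, Cacna1i and Scn9a came within 2-fold. Cacna1i also did so with classes from clusters, and Cacnb2 with gates 1.5 times as high.

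Between CA3-like and CA1-like cells, 2 of 28 members were higher (background over 10374 genes 2.23%) and 3 lower (2.47%) in CA3-like cells. Cacng2 stood at 3.92 times (2.31 to 7.05) and Cacna1c at 2.56 times (1.84 to 3.62) the CA1-like level. CA1-like cells held Cacng3 at 2.75 times (1.57 to 5.01), Cacna1g at 2.69 times (1.86 to 3.94) and Scn3b at 2.60 times (2.22 to 3.05) the CA3-like level. Cacna1a, at 792 against 426 CPM, was 1.86 times (1.66 to 2.09) as high in CA3-like cells and stayed under the 2-fold rule. With gates 1.5 times as high Cacna1c came within 2-fold, and Cacng3 did in 3 of 11 alternatives.

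CA3-like against granule-like cells gave 2 of 28 members higher (background over 11309 genes 4.04%) and 4 lower (4.39%). Higher in CA3-like cells were Cacna1a (2.43 times, 2.18 to 2.70) and Cacna2d3 (2.28 times, 1.92 to 2.72). Higher in granule-like cells were Scn3a (3.99 times, 3.04 to 5.31), Scn9a (3.82 times, 2.18 to 7.15), Cacng3 (3.71 times, 2.25 to 6.43) and Cacna1h (2.69 times, 2.16 to 3.37). With cells of at least 2000 UMIs Cacna1h came to a log2 ratio of -0.96.

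Interneuron-like cells were compared with the 3 excitatory classes summed. Of 28 members, 3 were higher (background over 12455 genes 4.41%) and 4 lower (6.07%). Cacna2d2, at 406 against 11.9 CPM, was 34.2 times (24.2 to 49.1) as high. Hcn3 was 5.33 times (2.78 to 9.76) and Scn9a 2.57 times (1.53 to 4.14) as high. Cacna1e, at 158 against 632 CPM, was 4.00 times (3.00 to 5.46) as high in the excitatory cells, followed by Cacna1h (3.36 times, 1.99 to 6.18), Cacng3 (3.02 times, 1.16 to 11.2) and Scn3b (2.51 times, 1.85 to 3.5). Scn1a, at 275 against 165 CPM, was 1.67 times (1.31 to 2.11) as high in interneuron-like cells, within the 2-fold rule. Cacng3 rested on 4 UMIs and came within 2-fold in 3 of 11 alternatives, Scn9a did with each cell given the same weight, and with 1 CPM added in place of 10 the count was 11 (5 higher and 6 lower).

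A list of 22 genes whose proteins anchor or modulate these channels was read the same way. Of 20 that could be read between granule-like and CA1-like cells 0 were higher (background 4.36%) and 2 lower (4.13%), of 21 between CA3-like and CA1-like cells 1 was higher (2.23%) and 2 lower (2.47%), of 21 between CA3-like and granule-like cells 3 were higher (4.04%) and 0 lower (4.39%), and of 21 between interneuron-like and excitatory cells 2 were higher (4.41%) and 1 lower (6.07%). Pex5l, an auxiliary subunit that sets the traffic of HCN channels in dendrites, was at 1442 CPM (1368 to 1520) in CA1-like, 276 (248 to 307) in CA3-like, 286 (261 to 313) in granule-like and 242 (189 to 305) in interneuron-like cells. The CA1-like level was 5.04 times (4.54 to 5.61) that of granule-like and 5.22 times (4.63 to 5.89) that of CA3-like cells. Fgf11, a cytoplasmic factor of the family that binds sodium channels, was at 31.6 CPM in CA1-like and at 8.99 and 6.01 CPM in CA3-like and granule-like cells, and its relative Fgf12 at 57.1 CPM in interneuron-like against 13.2 CPM in excitatory cells. Cabp1, a calmodulin-like regulator of calcium channels, was highest in CA3-like cells (137 CPM, 117 to 160, against 62.1 in CA1-like and 46.9 in granule-like cells). Rims2, which tethers calcium channels at release sites, was at 265 CPM in interneuron-like, 173 in CA3-like, 156 in CA1-like and 75.7 in granule-like cells. Ank3 and Sptbn4, the scaffold of the axon initial segment, stayed within 2-fold in all 4 comparisons.

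Glial classes of library 1 were compared with the 4 neuronal classes summed. Of 29 members 28 were higher in neurons than in microglia-like cells (background over 13940 genes 25.8%), 21 of 29 higher than in astrocyte-like cells (17.4% of 12978) and 25 of 28 higher than in oligodendrocyte-like cells (25.8% of 12795). In the last comparison 1 member was lower in neurons (background 14.9%), and 0 members were lower in neurons than in microglia-like (18.9%) and astrocyte-like cells (8.51%). In each comparison, most of the higher members passed the count minimum only through their neuronal UMIs. A member with few glial UMIs could therefore be read only where its neuronal UMIs were many. By glial UMIs alone, only Cacna2d1, Cacnb4, Hcn2, Scn2a and Scn8a reached the minimum in oligodendrocyte-like cells. Only Cacna1a, Scn2a, Scn2b and Scn8a did so in astrocyte-like cells. In microglia-like cells Cacna1i and Scn9a had 1 UMI each and Cacna1g 3. The median log2 ratio over the members was 2.35, 1.68 and 2.16, against 0.29, 0.23 and 0.35 over all genes. Cacna1a was at 491 CPM in neurons and at 45.7, 63.2 and 56.3 CPM in microglia-like, astrocyte-like and oligodendrocyte-like cells. The members that were not higher were Cacng4 against microglia-like cells; Cacna2d2, Cacnb1, Cacng4, Cacng7, Cacng8, Hcn2, Hcn3 and Scn2b against astrocyte-like cells; and Cacnb4, Cacng2 and Hcn2 against oligodendrocyte-like cells. In at least 1 of the 11 alternative settings 3 of the 28, 4 of the 21 and 7 of the 26 members that differed came within 2-fold, Cacna2d1 against oligodendrocyte-like cells in 4 of them.

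RNA of neuron markers was also counted in glial cells. The 10 neuron markers, among them Snap25 and Syt1, summed in microglia-like cells to 6.70% of their neuronal level (10.4% without Snhg11, the most abundant), in astrocyte-like cells to 11.5% (16.4%) and in oligodendrocyte-like cells to 9.13% (11.4%). A member was set apart only where it had at least 10 UMIs in the glial class and its lower bound lay above the larger of these 2 shares of its own neuronal level. This held for 5 members in microglia-like, 3 in astrocyte-like and 4 in oligodendrocyte-like cells. With fewer than 10 UMIs, the lower bounds of Cacna1f (2 UMIs), Cacna1s (9) and Cacng4 (5) in microglia-like, of Cacng7 (5) and Cacng8 (8) in astrocyte-like and of Cacnb3 (7) and Cacng2 (5) in oligodendrocyte-like cells also lay above it, and those of all other members in these 3 classes lay at or below it. Cells that passed a glial gate and also the neuron gate stayed in the glial class. How many did so, and how much of the glial levels goes with neuronal RNA, was not tested further.

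In oligodendrocyte-like cells, Hcn2 was at 225 CPM (172 to 290; 60 UMIs in 26 of 100 cells), above its level in every neuronal class. Against the 35.3 CPM of the 4 neuronal classes it was 6.38 times (4.65 to 8.68) as high. Library 2 held 47 oligodendrocyte-like cells, in which the neuron markers summed to 58.7 CPM. There Hcn2 was at 124 CPM (94.2 to 160; 59 UMIs in 19 cells) and again the member with the highest level. Cacnb4, at 86.3 CPM (54.7 to 130) in library 1 and 31.5 (17.6 to 51.9) in library 2, Cacna2d1, at 113 CPM (76.0 to 161) and 8.39 (2.29 to 21.5), and Scn8a, at 78.8 CPM (48.8 to 121) and 4.20 (0.508 to 15.2), also exceeded the neuron-marker share in library 1. One cell held 8 of the 30 Cacna2d1 UMIs and one held 6 of the 23 Cacnb4 UMIs. Pex5l was at 676 CPM (581 to 782) in the oligodendrocyte-like cells of library 1 and at 33.0 CPM (24.7 to 43.3) in its microglia-like cells.

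In the microglia-like cells of library 2, where the neuron markers summed to 59.1 CPM, Cacna1d stood above the other members at 55.3 CPM (50.8 to 60.1; 561 UMIs in 424 of 1507 cells). It was at 40.7 CPM (31.3 to 51.9) in library 1, above the neuron-marker share. Cacnb2 (17.7 CPM, 15.2 to 20.4) and Cacna1a (16.6 CPM, 14.2 to 19.3) followed, and every other member was at or below 3.95 CPM in library 2. Scn2a, Scn2b, Cacna2d1 and Hcn2 also exceeded the neuron-marker share in the microglia-like cells of library 1, at 74.3, 21.6, 38.1 and 10.2 CPM, but were at 3.85, 1.97, 2.47 and 2.76 CPM in library 2. Cacna1s, at 0 in the neuronal classes, had 9 UMIs in the microglia-like cells of library 1 (5.72 CPM) and 40 in those of library 2 (3.95 CPM, 2.82 to 5.37). Its exons, like those of Cacna1d, Cacnb2 and Cacna1a, overlap exons of a gene on the other strand. Scn8a, Cacna1e, Cacna1a and Scn3b lay between 43.2 and 48.9 CPM in the microglia-like cells of library 1, and none of these exceeded the neuron-marker share. In astrocyte-like cells Scn2b (58.0 CPM, 36.3 to 87.8), Cacna2d2 (36.9 CPM, 20.2 to 61.9) and Cacnb1 (34.3 CPM, 18.2 to 58.6) exceeded the neuron-marker share, while Scn2a (103 CPM), Scn8a (79.0 CPM), Cacna1a (63.2 CPM) and Cacna1e (47.4 CPM) did not.

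**Figure D4:**
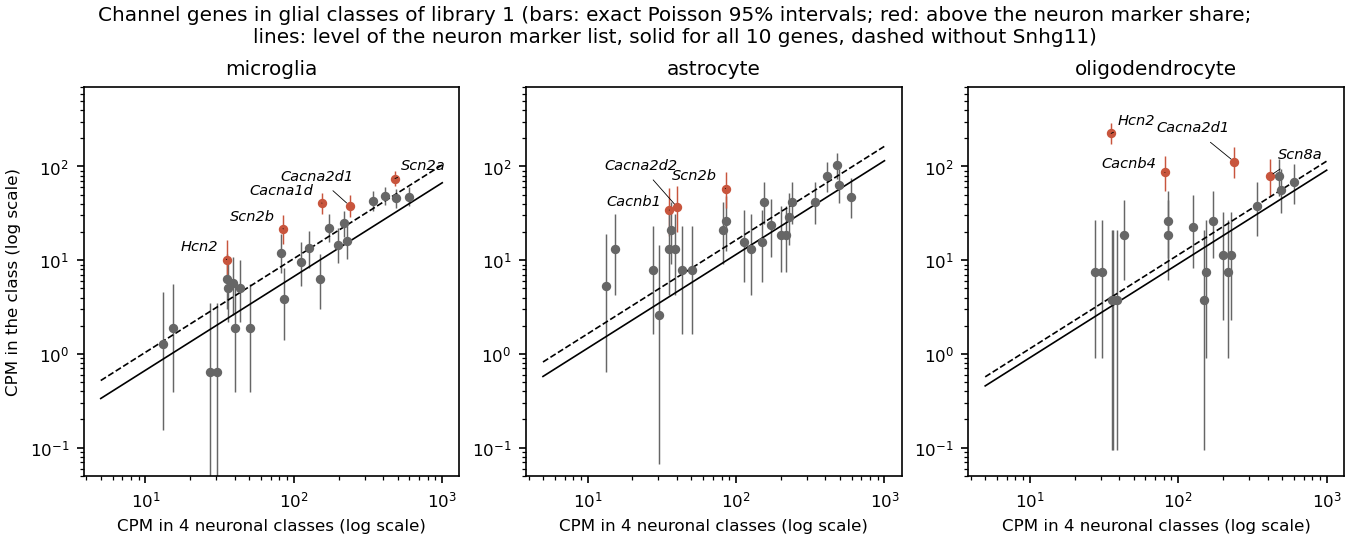
Level of each channel gene in microglia-like, astrocyte-like and oligodendrocyte-like cells of library 1 (vertical axes, CPM, log scale) against its level in the 4 neuronal classes (horizontal axes, CPM, log scale), with exact Poisson 95% intervals; lines give the level of the neuron marker list with (solid) and without (dashed) Snhg11, and genes at 0 are left out. Red points are the 5, 3 and 4 genes with at least 10 UMIs whose intervals lie above both lines, with Hcn2 at 225 CPM in oligodendrocyte-like cells the farthest from them.

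The vascular classes were read in library 2, which held 173 endothelial-like and 56 pericyte-like or smooth muscle-like cells (mural-like below). All 13 endothelial and all 14 mural markers were detected in the class they name, which the gates on these lists largely fixed in advance. Vtn, Atp13a5, Rgs4, Higd1b and Kcnj8 led the mural-like class, and the smooth muscle markers Acta2, Tagln, Myl9 and Myh11 were not among its 10 leading genes. How many of these cells were smooth muscle cells was not tested. Neuron markers summed to 47.7 and 79.1 CPM. The members summed to 82.0 CPM (71.8 to 93.4) in endothelial-like and 454 (373 to 547) in mural-like cells, against 125 (118 to 132) in the 1507 microglia-like cells, the class used as reference.

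In mural-like cells 5 of 13 members were higher than in microglia-like cells (background over 12279 genes 13.7%) and 0 were lower (14.2%). Cacna1c, the L-type pore of vascular smooth muscle, was at 95.7 CPM (60.7 to 144, 23 UMIs in 18 cells), against 0.493 CPM (5 UMIs) in microglia-like cells. It passed the count minimum only through its mural-like UMIs. Scn2b was at 87.4 CPM (54.1 to 134; 21 UMIs in 18 cells) against 1.97, Cacna2d1 at 62.4 CPM (34.9 to 103) against 2.47, Cacnb2 at 62.4 CPM (34.9 to 103) against 17.7, and Hcn2 at 20.8 CPM (6.76 to 48.6; 5 UMIs) against 2.76. A pore, an alpha2delta and a beta subunit of calcium channels were thus all higher here. Cacna1h, a T-type pore, had 11 UMIs in 11 mural-like cells (45.8 CPM, 22.9 to 81.9), but too few UMIs over both classes for the rule. This lay above its level in endothelial-like and microglia-like cells, the only other named classes of library 2 with at least 50 cells. A further 10 UMIs lay in 9 of the 98 cells of library 2 that passed more than 1 gate. Hcn2 came within 2-fold when up to 20% mitochondrially encoded UMIs were allowed, and with 1 CPM added the count of members that differed was 11 in place of 5, of which 5 were higher and 6 lower.

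Endothelial-like cells had 1 of 15 members higher (background over 13146 genes 12.7%) and 2 lower (11.2%) than microglia-like cells. Cacna1e, the R-type pore, was at 17.6 CPM (13 to 23.2, 49 UMIs in 31 of 173 cells) against 1.58 (16 UMIs), a ratio of 11.1 (6.22 to 21). It passed the count minimum only through its endothelial-like UMIs. Scn4b, which had 15 UMIs over the neuronal classes of library 1, was at 9.32 CPM (6.09 to 13.6; 26 UMIs in 16 cells). Lower were Cacna1d (3.94 CPM) and Cacnb2 (0.717 CPM), which both passed the count minimum only through their microglia-like UMIs. Cacna1a was at 14.7 CPM (10.5 to 19.9), Hcn2 at 10.0 (6.67 to 14.5) and Scn2b at 4.66 (2.48 to 7.96). With each cell given the same weight Cacna1e came just within 2-fold (log2 ratio 0.999), and with 1 CPM added the count was 7 in place of 3 (3 higher and 4 lower).

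**Figure D5:**
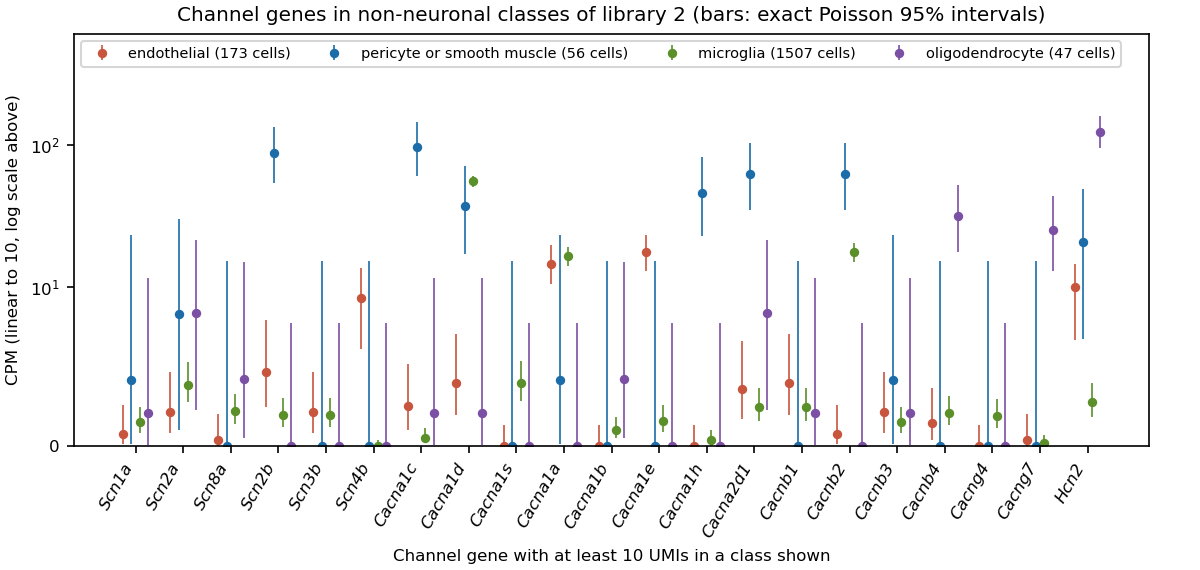
Level in CPM (linear to 10, log scale above) of the 21 channel genes with at least 10 UMIs in 1 of 4 non-neuronal classes of library 2, with exact Poisson 95% intervals. Cacna1c (95.7 CPM) and Scn2b (87.4 CPM) are high in pericyte-like or smooth muscle-like cells, Cacna1d (55.3 CPM) in microglia-like cells and Hcn2 (124 CPM) in oligodendrocyte-like cells.

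The 2145 neuron-like cells of library 1 that passed no subfield gate had Gm38073, Tshz2 and Rxfp1 as leading genes, and no subfield name was given. Cacna1a was at 435 CPM (415 to 455), Cacna1e at 566 (544 to 590), Scn3b at 249 (234 to 264) and Cacna2d2 at 60.9 (53.6 to 68.8). The last lay above every excitatory class and below the interneuron-like class.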

How the data were processed

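The values are raw, unscaled UMI counts for each pair of gene and barcode, as deposited by the authors. They came from Cell Ranger 3.0.1, per the file headers, on GRCm38.p5, per the submitters' processing notes. The files of library 2 carry a sample number that differs from its title.

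A barcode was kept as a cell from 1000 UMIs and 500 detected genes upwards, if no more than 10% of its UMIs came from mitochondrial genes. Scrublet (scanpy 1.11.5) was run on each library. Its automatic threshold marked 12.8% of barcodes in library 1 and 0 in library 2, where the 5.16% with the highest scores, the expected share, were taken instead. This removed 1220 and 89 cells that had passed the filters.

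The members, marker lists and partner list were chosen with earlier results of these data known. Broad lists were those of the non-neuronal classes and of Cajal-Retzius cells. A cell entered a broad class when exactly 1 broad list passed its gate, with at least 3 UMIs of at least 2 markers. Such a cell stayed there even where it also passed the neuron gate or a subfield gate. Gates were set after the marker shares had been seen, as shares of a cell's UMIs: 0.3% for neurons, 0.15% for CA1, 0.25% for CA3, 0.3% for granule cells, 0.2% for interneurons, 2% for microglia, 1% for oligodendrocytes, 0.6% for astrocytes and 0.5% for each vascular class. A cell entered a subfield or interneuron class when it passed no broad gate, the neuron gate and exactly 1 of the subfield and interneuron gates. The same minimum of marker UMIs held. No marker is a member. Of the 44 genes that the rule matched, 3 are not reported here and enter no count or sum of members.

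UMIs were summed per class and library and scaled to CPM. Exact 95% intervals (scipy 1.17.1) are Poisson for levels, conditional binomial for ratios and Clopper-Pearson for shares. A count of 0 was read as allowing 3. For shares of cells, each cell was thinned to 1000 UMIs, which left out 0 cells. Members with at least 100 UMIs over the 4 neuronal classes are given in each of them. In other classes of at least 50 cells the named members are up to 6 with the highest CPM and those whose interval lies above that of every other class, and others are named where a comparison or the neuron-marker share singled them out. The comparison code was tested on simulated data. The alternatives were other filters, doublets kept, stricter gates, classes from clusters (Leiden, leidenalg 0.10.2, without the members), equal weight per cell, other scaling, 1 CPM added, no count minimum and subfields without the neuron gate.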

Additional observations from a re-analysis of the deposited data

How the results depend on the processing

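Over 11 alternatives, 0 of 1183 ratios of differing members turned direction and 1140 stayed beyond 2-fold. Of 108 results, 83 stayed beyond 2-fold in every alternative that gave a value. These counts include the alternatives with no count minimum and with 1 CPM added, which could neither reverse a ratio nor bring it within 2-fold. Dropping the count minimum left each ratio as it was, and a smaller added value could only move it farther from equality. Their share of these counts was therefore fixed in advance and is no test of the ratios. The counts of differing members that moved by more than 1.5 times were 4 in place of 7 for granule-like against CA1-like cells with at least 2000 UMIs per cell, and, with 1 CPM added, 11 in place of 7 for interneuron-like, 7 in place of 3 for endothelial-like and 11 in place of 5 for mural-like cells. A smaller added value lets ratios of low counts pass 2-fold by construction, and the cause of the change with deeper cells was not tested. Clusters gave no separate mural class in library 2. Subfields without the neuron gate were added after the data had been seen. No paired analysis was possible because each library is a single pool with no group, and none could be left out in turn. Depth limits the 158 interneuron-like, 100 oligodendrocyte-like and 56 mural-like cells most, where many members rest on fewer than 20 UMIs.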

Other observations

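Classes under 50 cells entered no comparison, and their values are given as they are. Library 2 held 44 gated neurons, in which the members summed to 4118 CPM (exact Poisson 95% interval 3733 to 4533), against 4413 (4368 to 4458) in the 4437 gated neurons of library 1. The R-type pore gene Cacna1e was at 562 CPM (425 to 728) in the neurons of library 2, Cacna1a at 434 (315 to 582), Scn2a at 365 (257 to 502) and Scn8a at 325 (224 to 457). In all gated neurons of library 1 these 4 genes also had the most UMIs, with Cacna1e at 582 CPM, Scn2a at 471, Cacna1a at 463 and Scn8a at 410. The libraries are unassigned, so no method is attached to these values.

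In the 33 choroid plexus-like cells of library 2, Cacnb4, a calcium channel beta subunit, was at 33.5 CPM (17.3 to 58.5; 12 UMIs) and Cacna2d2 at 22.3 CPM (9.64 to 44.0; 8 UMIs). Every other member had 4 or fewer UMIs there. The 46 choroid plexus-like cells of library 1 had 2 UMIs of Cacnb4 (10.7 CPM, 1.29 to 38.5) and 6 of Cacna2d2 (32.0 CPM, 11.7 to 69.6), while the neuronal genes Cacna1e, Scn2a and Scn3b had 8 or 9.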
